A study of Saccharomyces cerevisiae with 13 samples.

Results

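The 31 genes described here encode subunits of the yeast proteasome. They were taken by name from a list of core and regulatory particle genes that lie off chromosome 12, and they are 31 of the 6326 genes in the deposited tables. Of these, 14 encode the core (7 the alpha rings and 7 the beta rings) and 17 the regulatory particle (6 ATPases and 3 other subunits grouped with the base, and 8 subunits of the lid). Over newly replicated DNA their median promoter signal, relative to the gene body, was below that of other genes in all 11 libraries up to 15 min. Between 22 and 27 of the 31 lay below the median of the other genes in each of these libraries. None of the 31 passed the test for a change between early and late times. The strain is labelled as lacking *RTT109*, which encodes a histone acetyltransferase that acts on newly made histone H3.

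The strain derives from W303 and carries the h-ENT1 transporter and, as labelled, HPV-Thymidine kinase, which let yeast take up and use EdU, a thymidine analogue. Asynchronous cultures were pulsed with EdU for 5 min and chased with thymidine for 5 min, and aliquots were fixed in formaldehyde at 0, 2, 4, 6, 8 and 15 min in replicate 1 and at 2, 4, 6, 8, 15 and 25 min in replicate 2. Chromatin was cut with micrococcal nuclease (MNase), and fragments with EdU were pulled down after coupling to biotin, which gave 12 nascent libraries. A library of total chromatin from the same mutant is the only bulk library. All libraries of a replicate are aliquots of 1 culture, only cells that replicated during the pulse contribute to nascent libraries, and no unmutated strain was analysed here. The sample titles name input DNA and the source label names a *chd1* deletion, while the descriptions say nascent chromatin. The mean signal of *RTT109* from 0 to 1000 bp lay between 0.0230 and 0.0675 in replicate 1 and was 0.0632 in bulk, and that of *CHD1* lay between 0.788 and 1.15 in all 13 libraries, where 1 is the library mean. In replicate 2 *RTT109* was listed at 0, as chromosome 12 was in that replicate, so the deletion could not be read there.

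The proteasome degrades proteins tagged with ubiquitin. Its core is a stack of alpha and beta rings with the proteolytic sites inside, and its regulatory particle binds ubiquitin, removes it and feeds the unfolded protein into the core through a ring of ATPases. In budding yeast the genes are transcribed together by Rpn4, a short-lived activator that the proteasome itself degrades. Rpn4 binds the proteasome-associated control element (PACE). Active yeast promoters hold a nucleosome depleted region (NDR) upstream of the transcription start site (TSS), followed by the +1 nucleosome and a regular array over the gene body, and MNase signal is low in the NDR and high over nucleosomes.

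The alpha ring genes are *SCL1* (YGL011C), *PRE8* (YML092C), *PRE9* (YGR135W), *PRE6* (YOL038W), *PUP2* (YGR253C), *PRE5* (YMR314W) and *PRE10* (YOR362C), whose products form the gate of the core. The beta ring genes are *PRE3* (YJL001W), *PUP1* (YOR157C) and *PRE2* (YPR103W), which carry the proteolytic sites, and *PUP3* (YER094C), *PRE1* (YER012W), *PRE7* (YBL041W) and *PRE4* (YFR050C). The ATPases, which unfold substrates, are *RPT1* (YKL145W), *RPT2* (YDL007W), *RPT3* (YDR394W), *RPT4* (YOR259C), *RPT5* (YOR117W) and *RPT6* (YGL048C). *RPN1* (YHR027C) and *RPN2* (YIL075C) are scaffolds of the base, and *RPN10* (YHR200W) is a ubiquitin receptor. Lid genes among the 31 are *RPN3* (YER021W), *RPN5* (YDL147W), *RPN6* (YDL097C), *RPN7* (YPR108W), *RPN8* (YOR261C), *RPN9* (YDR427W), *RPN12* (YFR052W) and *RPN11* (YFR004W), the deubiquitinase. All 31 had values in every library and entered every fit.

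The letters GGTGGCAAA of the PACE were searched on both strands from 250 bases before to 50 bases after the start of each gene in the R64 assembly of RefSeq, which in this annotation is the start codon. They were found at 27 of the 31 proteasome genes (87.1%) and at 72 of all 6001 promoters (1.20%), each of the 27 with 1 match. *PRE5*, *PUP1*, *RPN8* and *RPN10* had no match in this window. The motif ends in A and can overlap a run of A. The matches lay between 75 and 174 bases upstream of the gene start. The sites printed are those of the genes with the 3 lowest and the 3 highest promoter signals in bulk and of *RPT2*, whose promoter ratio and body level differed most between early and late. Each is written 5′ to 3′ on the strand named, with the PACE in capitals.
PUP2, chrVII:999226-999254, minus strand: aaccaagaccGGTGGCAAAagagtaacct
PRE8, chrXIII:86841-86869, minus strand: agcttattaaGGTGGCAAAattgtccccg
RPT4, chrXV:813802-813830, plus strand: ctttcccttcGGTGGCAAAttccactatt
PRE3, chrX:435035-435063, plus strand: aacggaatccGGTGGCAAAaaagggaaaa
PRE7, chrII:141150-141178, plus strand: aaactcaaagGGTGGCAAAaacaagcggt
PRE10, chrXV:1018856-1018884, minus strand: cctctaaatcGGTGGCAAAaataagaaag
RPT2, chrIV:437906-437934, plus strand: gtttttctccGGTGGCAAAtgtctctttt
The same 9 letters therefore stood upstream of genes at both ends of the range of promoter signal. The motif lay 95 bases before the start codon of *PUP2*, 78 before that of *PRE7* and 122 before that of *RPT2*. A match is a description of the sequence and does not show that Rpn4 was bound.

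Other motifs were rarer. TTACCCG, the letters of the Reb1 site, stood in 9 of the 31 promoters (29%, against 7.08% of all promoters). TATAAAA was present in 5 (16.1% against 21.9%) and a run of AAAAAAA in 10 (32.3% against 49.9%). In the deposited annotation all 31 genes were classed as TFIID-dominated, as were 76.7% of the other genes. Their median RNA polymerase II occupancy, on the scale listed in the files, was 0.613 against -0.0174 in 4959 other genes, and *PRE10* had the lowest value, -0.0348. Their median distance to the nearest origin was 11499 bp against 10131 bp, and the files list 22 of the 31 as lagging (against 51.7% of the others). None of these features was used to choose the genes.

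Each table gives coverage in bins of 20 bp around the TSS, divided by the mean of the library. Depth, read from the step between values, ranged from 2.57 reads per bin at 0 min and 4.94 at 4 min of replicate 1 to 78.1 at 6 min of replicate 2. In the proteasome promoters the median was 0.429 reads per bin at 0 min and 1.14 at 4 min of replicate 1, where 3 and 0 of the 31 promoters were listed at 0, and 6.71 to 44.4 in the other libraries. Single values at 0 min and at 4 min of replicate 1 therefore rest on few reads. The promoter ratio is the mean signal from -150 to 0 bp and the +1 ratio the mean signal from 0 to 120 bp, each over the mean from 0 to 1000 bp. The body level is the mean from 0 to 1000 bp, and the array contrast is the signal at the peaks of nucleosomes +2 to +7 over that at the troughs beside them. The contrast used the peaks and troughs with values, at least 2 of each, so in short genes it covers fewer nucleosomes. Comparisons were made with the 5748 other genes off chromosome 12. Spreads between nascent libraries cover time points of 2 cultures, and p-values measure the spread between these libraries.

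The NDR of the proteasome genes was deeper than that of the other genes. From 0 to 15 min (11 libraries) their median promoter ratio was 0.292 ± 0.0487 (SD between libraries, n = 11), with a lowest value of 0.221 and a highest of 0.377. The median of the other genes was 0.555 ± 0.0265 (SD, n = 11), from 0.527 to 0.608. Single genes overlapped: at 15 min of replicate 1 the upper quartile of the 31 was 0.468 and the lower quartile of the others 0.348. The medians of the proteasome genes and of the other genes did not overlap in these libraries, and the difference was -0.263. It was present in bulk as well, with 0.343 against 0.567. Between 22 and 27 of the 31 genes lay below the median of the other genes in each of these libraries, and 23 did in bulk. By their mean over these 11 libraries, 21 of the 31 were in the lowest 25% of 5646 genes and 2 in the highest 25%. In bulk the counts were 15 and 4. With bins listed at 0 left out the difference of medians was -0.160, and with the promoter taken from -200 to 0 bp it was -0.180, both chosen after the data were seen.

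The average profile showed the same. The lowest signal between -200 and 0 bp was 0.179 ± 0.0358 (SD, n = 11 libraries) over the proteasome genes and 0.522 ± 0.0435 over the others. The +1 peak was 1.40 ± 0.172 high over the proteasome genes and 1.30 ± 0.111 over the others, and it was higher over the proteasome genes in 10 of 11 libraries, all but the shallow one at 0 min. The +1 peak was thus 7.97 ± 1.20 times the lowest promoter signal at the proteasome genes and 2.49 ± 0.0777 times at the other genes, and these ranges, 6.41 to 10.4 and 2.29 to 2.56, did not overlap. Bulk gave 8.05 and 2.79.

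**Figure D1:**
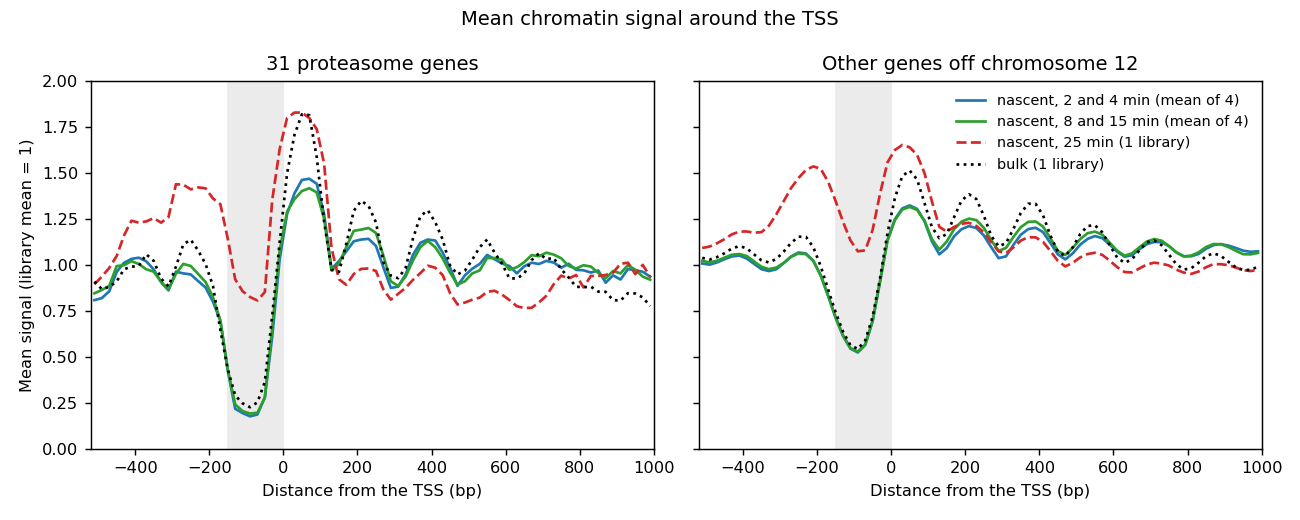
Mean signal (library mean = 1) against distance from the TSS (bp) for the 31 proteasome genes (left) and the other genes (right), for early and late nascent libraries (each the mean of 4), the 25 min library and bulk, with the promoter window shaded. Early and late lines lie together, the NDR of the proteasome genes is deeper, and at 25 min their lowest signal is 0.806 against 0.226 in bulk.

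The groups of subunits did not differ beyond the spread between libraries. The median promoter ratio over the 11 libraries was 0.281 ± 0.0904 (SD, n = 11) for the beta ring, 0.283 ± 0.0525 for the non-ATPase subunits of the base, 0.301 ± 0.0601 for the ATPases, 0.325 ± 0.0559 for the lid and 0.350 ± 0.0931 for the alpha ring. In the alpha and beta rings, the genes at both ends of the order were further apart than this.

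*PUP2*, which encodes an alpha subunit, had the lowest promoter signal. Its promoter ratio had a lowest value of 0.0111, a median of 0.0721 and a highest value of 0.250 in the 11 nascent libraries, and was 0.00388 in bulk. *PRE8*, also an alpha subunit, followed in bulk with 0.0716 (nascent 0.0756, 0.143 and 0.309), and *RPT4*, an ATPase, with 0.103 (nascent 0.0601, 0.149 and 0.360). The bulk values of *PUP2* and *PRE8* lay below all 11 nascent values, and that of *RPT4* lay among them.

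At the other end, *PRE3* had the highest promoter ratio of the 31 in bulk and by its nascent mean. *PRE3* encodes the beta subunit with caspase-like activity. Its promoter ratio was 1.74 in bulk, and 0.605, 1.14 and 2.78 as the lowest, median and highest nascent values, the last at 0 min. *PRE7*, a beta subunit, had 1.13 in bulk (nascent 0.474, 1.07 and 1.64), and *PRE10*, an alpha subunit, had 1.12 (nascent 0, 0.611 and 0.961). These 3 promoters held as much signal as the gene body or more in bulk, and only *PRE10* was above all its nascent values there. *RPT1*, an ATPase, was also high, with a nascent median of 0.859 and a bulk value of 0.676. It lies on chromosome XI, where the listed TSS positions differ from the R64 gene starts. The average bulk profile of chromosome XI had its lowest signal at -70 bp and its +1 peak at 70 bp, against -90 and 50 bp elsewhere. An average cannot show whether the TSS of *RPT1* itself is well placed, and the part of its placement in these values was not tested. The ranges of *PUP2* and *PRE3* did not overlap, while those of most neighbours in the order did.

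**Figure D2:**
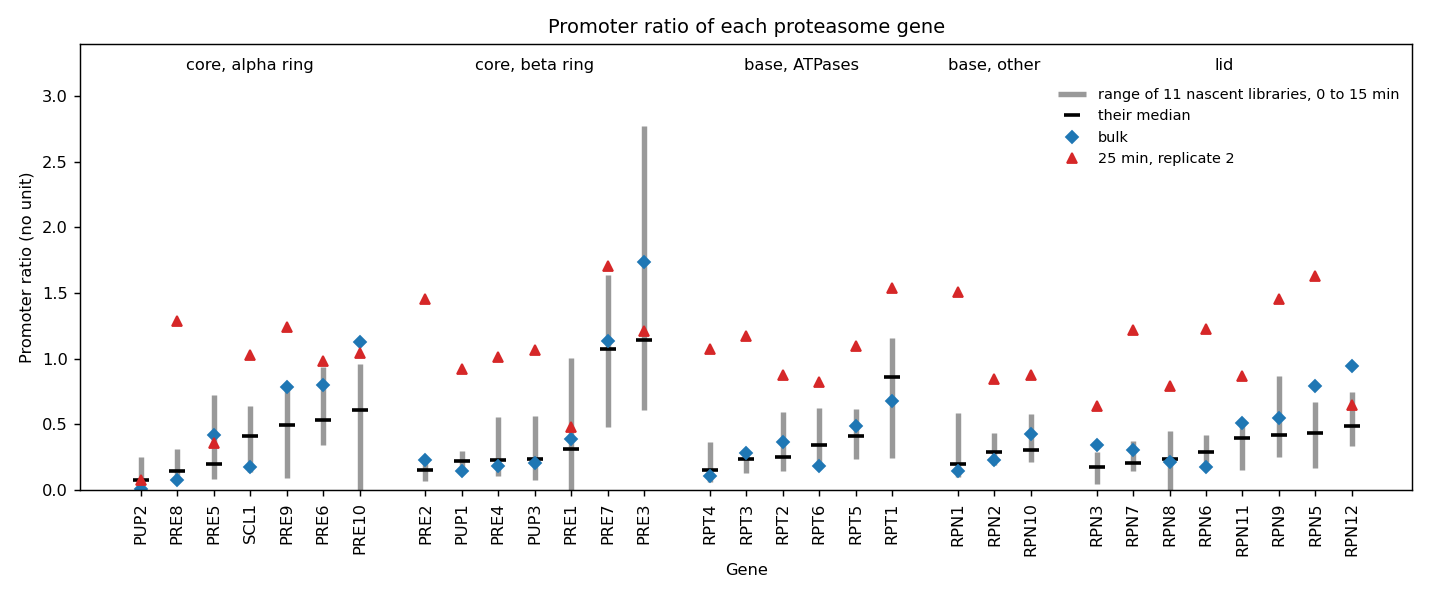
Promoter ratio of each of the 31 genes, grouped by subunit: grey bars span the 11 nascent libraries from 0 to 15 min, black marks their median, diamonds the bulk library and triangles the 25 min library. PUP2 has the lowest nascent median (0.0721), PRE3 the highest (1.14), and the triangles are above the bars in 26 of 31 genes.

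The +1 position carried more signal at the proteasome genes in most libraries. Their median +1 ratio was 1.25 ± 0.129 (SD, n = 11) against 1.08 ± 0.0348 in the other genes, and 1.35 against 1.16 in bulk. It was higher in 10 of these 11 libraries. The exception was the shallow library at 0 min, with 0.936 against 1.00. By their nascent mean 16 of the 31 genes were in the highest 25% and 4 in the lowest 25%. *RPN12*, a lid subunit, had the highest mean (lowest 0.979, median 2.07, highest 2.67, bulk 2.98). *PRE7* and *PRE10* had the lowest, with *PRE7* at 0.224, 0.477 and 0.937 (bulk 0.398) and *PRE10* at 0.263, 0.511 and 0.958 (bulk 0.391). These are also 2 of the 3 genes with the highest promoter ratio in bulk, and in bulk the +1 position held less signal than the promoter at both. In nascent libraries this was so for *PRE7* in 11 of 11 and for *PRE10* in 7 of 11.

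**Figure D3:**
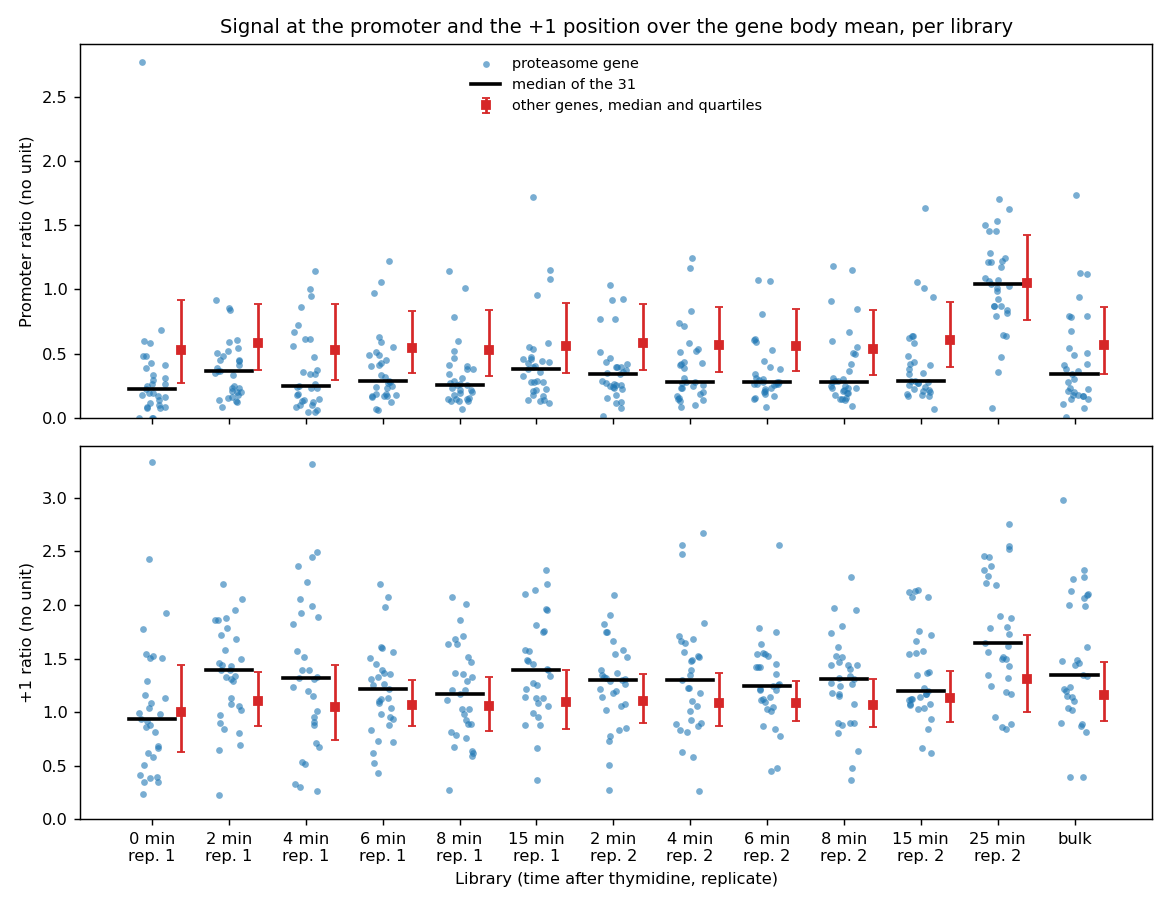
Promoter ratio (top) and +1 ratio (bottom) in each library: dots are the 31 genes, black bars their median, and red squares with whiskers the median and quartiles of the other genes. The promoter medians of the proteasome genes are below those of the other genes in all libraries up to 15 min and in bulk, and both are near 1.04 at 25 min.

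Gene bodies differed less. The median body level was 1.03 ± 0.0887 (SD, n = 11) in the proteasome genes and 1.10 ± 0.0827 in the others. These SDs include an offset between the replicates, so the difference cannot be judged against them. In these libraries the median of the other genes was 1.02 to 1.05 in replicate 1 and 1.17 to 1.21 in replicate 2. The proteasome median was the lower in each of the 11 libraries, with differences from -0.141 to -0.0346. This difference was small and was not tested. The ATPase genes had the highest body level (1.24 ± 0.110) and the alpha ring genes the lowest (0.845 ± 0.0747), and these ranges, 1.08 to 1.40 and 0.760 to 0.959, did not overlap. The array contrast was 1.10 ± 0.0450 against 1.11 ± 0.0166, and 1.15 against 1.18 in bulk. It was lower at the alpha ring genes (0.941 ± 0.0660) than at the lid genes (1.19 ± 0.0525), again without overlap (0.820 to 1.06 and 1.12 to 1.30). *RPN11*, which encodes the deubiquitinase of the lid, had a nascent median contrast of 1.59, and *RPT1* one of 0.830. The genes were short, with a median row length of 1120 bp against 1300 bp, so that part of the 0 to 1000 bp window lay beyond the end of some. The shortest row was 800 bp, while the +6 and +7 peaks lie at 870 and 1030 bp. The array contrast of short genes therefore rests on fewer nucleosomes. The alpha ring genes with a PACE were also shorter than the ATPase genes and most lid genes with one. The groups were not matched for length, and its part in their differences was not tested.

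The 25 min library, taken in replicate 2 only, stood apart. In that library the median promoter ratio of the proteasome genes was 1.04, close to the 1.05 of the other genes, against 0.286 and 0.608 at 15 min. Between 15 and 25 min the ratio was larger at the later time in 31 of 31 proteasome genes, and in 81.5% of 5646 genes tested. The median log2 change between these 2 libraries was 1.40 at the proteasome genes and 0.68 at the others. At 25 min 26 of the 31 were above all 11 other nascent libraries, against 56.5% of all genes. *PRE2*, the beta subunit with chymotrypsin-like activity, went from 0.0685, 0.149 and 0.230 (lowest, median and highest up to 15 min) to 1.45. *RPN1*, a scaffold of the base, had 1.51 after a highest earlier value of 0.582, and *RPN5*, of the lid, 1.63 after 0.671. *PUP2* had 0.0729, and *PRE1*, *PRE3*, *PRE5* and *RPN12* also stayed below the highest of their earlier values, though above their 15 min value. The +1 ratio exceeded its 15 min value in 25 of the 31 (66% of all genes) and that of all other nascent libraries in 10 (30.8%), with a median of 1.64 against 1.31 in the other genes. The body level exceeded its 15 min value in 7 (36.3% of all genes) and the array contrast in 14 (35.4%). This is 1 library with no replicate, no test was made, and the higher promoter signal was seen across the genome. The shallow library at 0 min gave the lowest nascent value in 9 of the 31 for the promoter ratio (26.2% of all genes), in 13 for the +1 ratio (27%), in 4 for the body level (24%) and in 9 for the array contrast (25.6%).

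Whether the chromatin of these genes changed over the chase was asked by comparing early libraries (2 and 4 min, n = 4) with late ones (8 and 15 min, n = 4), fitted with limma over all genes on log2(value + 0.1). This scale understates the change of low promoters. None of the 31 passed an adjusted p of 0.05 in any measure. For the promoter ratio 0 of 31 were called, with 3 of all 5663 genes called (0.053%), and 1 proteasome gene had an unadjusted p under 0.05 (8.23% of all genes). For the +1 ratio 0 were called (0.0353% of all genes, 2) and 3 had an unadjusted p under 0.05 (9.61%). For the body level 0 were called (1.67%, 95 genes) and 8 had an unadjusted p under 0.05 (17.9%), of which 5 were higher late (11.8%). For the array contrast 0 were called (0.0201%, 1 gene) and 4 had an unadjusted p under 0.05 (8.32%). With the replicate as a block the counts over all genes were 3, 1, 252 and 2, and those of the 31 stayed at 0. The late minus early median of the 31 was 0.08, -0.01, 0.04 and 0.02 on the log2 scale in the 4 measures, and that of all genes -0.02, -0.00, 0.01 and 0.01. The promoter ratio was higher late in 16 of 31 (47.2% of all genes), the +1 ratio in 15 (49.3%), the body level in 17 (51.5%) and the array contrast in 17 (54.7%).

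**Figure D4:**
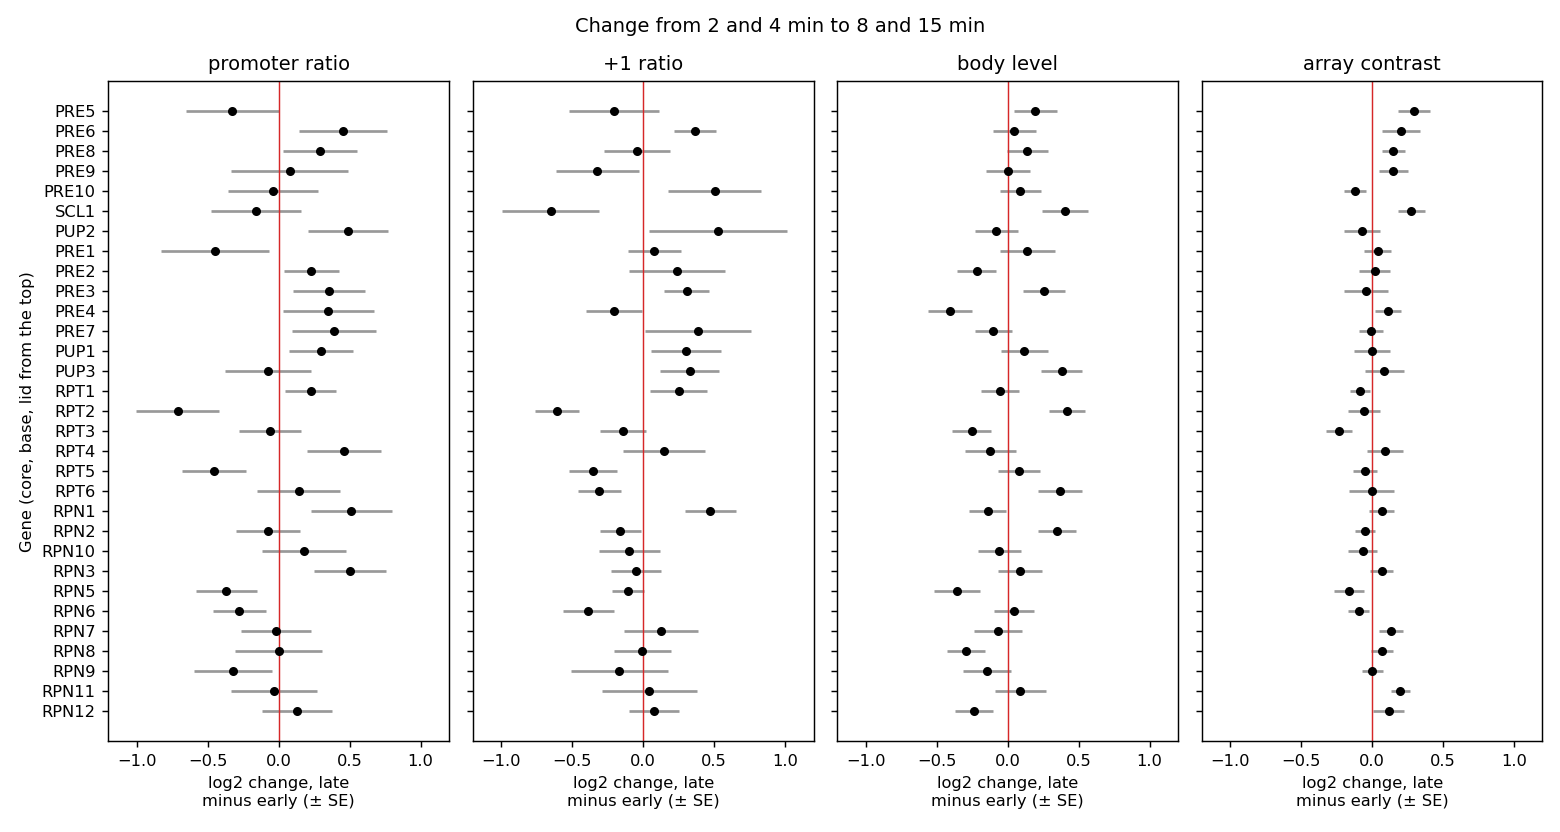
Log2 change of each of the 31 genes from early (2 and 4 min, n = 4) to late (8 and 15 min, n = 4) nascent libraries in the 4 measures, as dots with the limma standard error. The changes lie on both sides of 0, and RPT2 has the largest promoter change, -0.71.

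*RPT2*, an ATPase of the base whose tail opens the gate of the core, had the largest difference in promoter ratio and in body level. Its body level was 0.919 and 1.01 at 2 and 4 min of replicate 1 and 1.01 and 0.978 in replicate 2, and 1.26 and 1.43 at 8 and 15 min of replicate 1 and 1.26 and 1.40 in replicate 2. Early and late values did not overlap, and the log2 change was 0.42 (SE 0.13, limma adjusted p = 0.0972). Here and below, genes were picked for large changes, and the share of all genes without overlap was not counted. Its +1 ratio was 1.39, 1.01, 1.02 and 1.51 early and 0.755, 0.661, 0.807 and 0.843 late, in the same order, without overlap (-0.61, SE 0.15, limma adjusted p = 0.361). Its promoter ratio was 0.590, 0.229, 0.248 and 0.582 early and 0.196, 0.142, 0.193 and 0.258 late (-0.71, SE 0.29, limma adjusted p = 0.589). Here 2 early values lay below the highest late value. At 25 min the promoter ratio of *RPT2* was 0.871 and its +1 ratio 1.5, both above the late values, and its body level was 1.47. At 0 min its body level was 0.256, the lowest of its 13 values and in the shallowest library.

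Among the core genes, *SCL1*, an alpha subunit, had the next largest increase in body level. The values in replicates 1 and 2 were 0.802 and 0.705, and 0.873 and 1.02, early (2 and 4 min), and 1.19 and 0.937, and 1.02 and 1.53, late (8 and 15 min). The groups overlapped, and the log2 change was 0.41 (SE 0.16, limma adjusted p = 0.190). Its +1 ratio was 1.95, 2.49, 1.91 and 2.56 early and 0.622, 1.81, 1.40 and 2.14 late (-0.65, SE 0.34, limma adjusted p = 0.585), and its array contrast 1.00, 0.752, 1.05 and 0.922 early and 1.10, 1.07, 1.18 and 1.22 late (0.28, SE 0.10, limma adjusted p = 0.521). The array contrast of *SCL1* did not overlap between early and late. *PRE4*, a beta subunit, had the largest decrease in body level, with 1.05, 1.39, 1.12 and 1.24 early and 0.987, 0.658, 1.03 and 0.873 late, without overlap (-0.41, SE 0.15, limma adjusted p = 0.168). *PRE5*, an alpha subunit, had an array contrast of 0.632, 0.566, 0.811 and 0.844 early and 0.919, 0.948, 0.893 and 0.793 late, which overlapped (0.29, SE 0.11, limma adjusted p = 0.521).

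The promoter ratio of *PUP2* was 0.0815, 0.0468, 0.0111 and 0.0831 early and 0.0654, 0.117, 0.250 and 0.0667 late (0.49, SE 0.28, limma adjusted p = 0.653), with overlap. Its +1 ratio was 1.78, 0.327, 1.21 and 1.40 early and 1.03, 2.14, 1.97 and 1.20 late (0.53, SE 0.48, limma adjusted p = 0.764). That of *PRE10* was 0.646, 0.263, 0.511 and 0.268 early and 0.590, 0.958, 0.367 and 0.620 late (0.50, SE 0.33, limma adjusted p = 0.648). Both overlapped between early and late. *PRE1*, a beta subunit, had a promoter ratio of 0.363, 1.00, 0.419 and 0.270 early and 0.6, 0.170, 0.308 and 0.267 late (-0.45, SE 0.38, limma adjusted p = 0.759), and its high early value came from the shallow library at 4 min of replicate 1.

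In the regulatory particle, *RPT5*, an ATPase, had a promoter ratio of 0.540, 0.615, 0.353 and 0.538 early and 0.230, 0.394, 0.421 and 0.340 late (-0.46, SE 0.23, limma adjusted p = 0.610). *RPN1* had 0.197, 0.118, 0.253 and 0.181 early and 0.261, 0.287, 0.179 and 0.582 late (0.51, SE 0.29, limma adjusted p = 0.648), and *RPN3*, of the lid, 0.124, 0.0403, 0.126 and 0.172 early and 0.290, 0.214, 0.135 and 0.171 late (0.50, SE 0.25, limma adjusted p = 0.610). In all 3 the early and late values overlapped. The body level of *RPN5* was 0.926, 0.861, 0.984 and 0.984 early and 0.846, 0.487, 0.887 and 0.691 late (-0.35, SE 0.16, limma adjusted p = 0.265), and its array contrast 0.921, 0.907, 1.03 and 1.04 early and 0.965, 1.01, 0.758 and 0.724 late (-0.17, SE 0.11, limma adjusted p = 0.722). *RPT3*, an ATPase, had an array contrast of 1.52, 1.53, 1.31 and 1.52 early and 1.06, 1.37, 1.17 and 1.36 late (-0.23, SE 0.09, limma adjusted p = 0.536). These too overlapped, with 1 early value of *RPT3* below 2 of its late values.

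**Figure D5:**
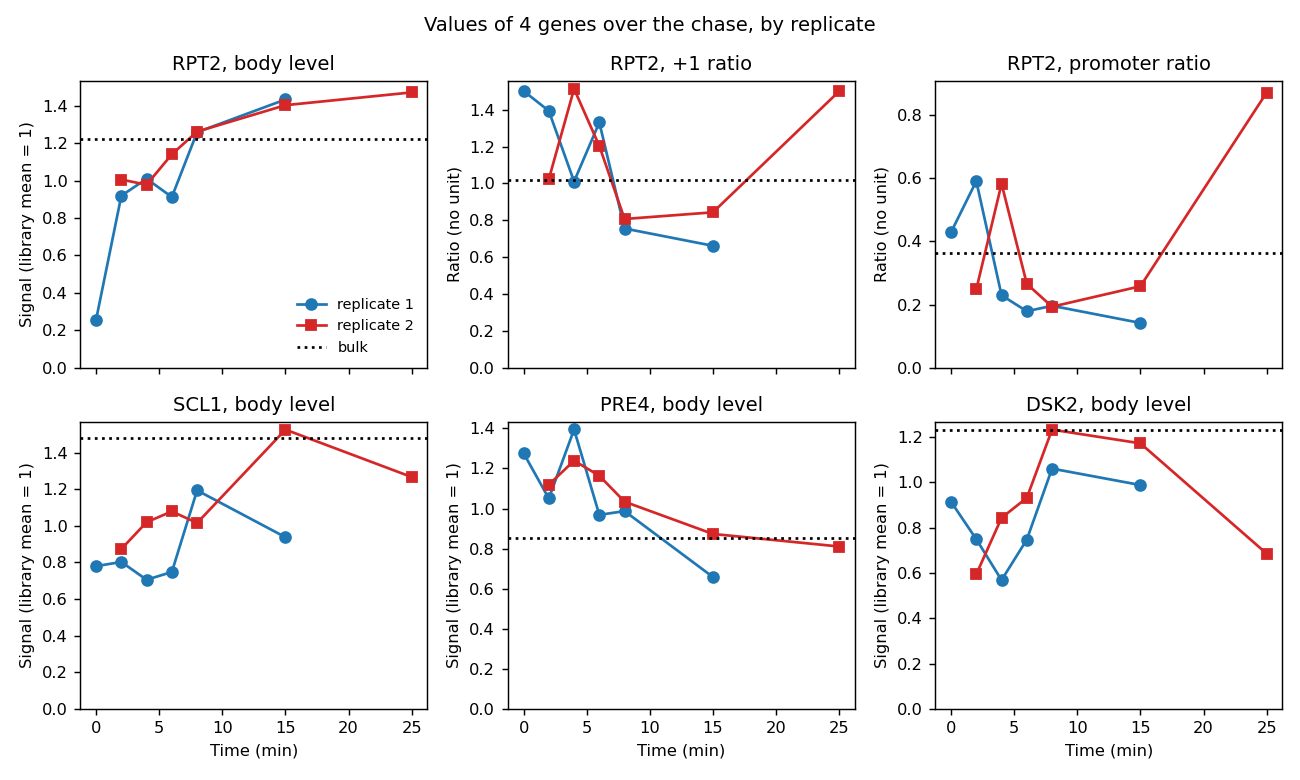
Values over time (min) in replicates 1 and 2, with bulk as a dotted line, for the 3 measures of RPT2 and the body level of SCL1, PRE4 and DSK2. The body level of RPT2 is between 0.919 and 1.01 early and between 1.26 and 1.43 late in both replicates.

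Bulk chromatin was compared with the range of the 11 nascent libraries from 0 to 15 min. The promoter ratio in bulk was below that range in 4 proteasome genes, *PRE8*, *PUP2*, *RPT6* and *RPN6* (7.26% of 5646 genes), and above it in 7, *PRE9*, *PRE10*, *RPT3*, *RPN3*, *RPN5*, *RPN11* and *RPN12* (8.38%). These are 12.9% and 22.6% of the 31. The counts were not stable: those below the range were 2 and 1 on the forward and reverse strands, 9 with bins at 0 left out and 10 without replicate 1, and those above were 3 on the reverse strand and 2 with bins at 0 left out. *RPN5* had 0.793 in bulk against 0.164, 0.432 and 0.671 in nascent libraries, and *RPN12* 0.944 against 0.334, 0.487 and 0.742. *RPT6*, an ATPase, had 0.178 in bulk against 0.179, 0.340 and 0.624, close to the edge of its range. The +1 ratio in bulk was above the range in 4, *RPT1*, *RPT6*, *RPN5* and *RPN12* (10.2% of all genes), and below it in 0 (3.06%). *RPT6* had 2.09 against 0.388, 1.38 and 2.05, and *RPN5* 2.10 against 1.16, 1.55 and 1.93. On the forward and reverse strands alone 2 and 0 were above, and 10 were without replicate 1. The body level in bulk was above in 5, *PRE5*, *PUP3*, *RPT6*, *RPN2* and *RPN10* (15.3%), and below in 2, *RPN8* and *RPN12* (6.81%). The array contrast was above in 6, *PRE1*, *PRE2*, *PRE5*, *RPT3*, *RPN2* and *RPN6* (28.6%), and below in 2, *PRE9* and *RPN9* (13.7%). *PRE2* had 1.76 in bulk against 1.02, 1.16 and 1.39, and *RPT3* 1.86 against 1.06, 1.36 and 1.53. The counts in body level and array contrast were near or under the share of all genes and also moved with the strand and the replicates used, and with 1 bulk library no test was made. The order of the 31 genes in nascent and bulk chromatin was alike in the promoter ratio (Spearman rho = 0.812 across the 31 genes) and in the +1 ratio (0.868), less in the array contrast (0.728) and the body level (0.557). Genes are not replicates, and these values describe the libraries.

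Of 24 further genes of the pathway, 23 were measured. The list holds assembly chaperones, ubiquitin enzymes, delivery factors, *RPN4*, *BLM10*, *UBP6*, *ECM29* and *SEM1*, a further lid gene. In the promoter ratio, +1 ratio and array contrast 0 of the 23 passed an adjusted p of 0.05 (limma), with 2, 0 and 4 at an unadjusted p under 0.05 (8.23%, 9.61% and 8.32% of all genes). In the body level 7 of the 23 had an unadjusted p under 0.05 (17.9% of all genes), 4 of them higher and 3 lower late. The late value was higher in 9 of the 23 for the promoter ratio (47.2% of all genes), 11 for the +1 ratio (49.3%), 14 for the body level (51.5%) and 20 for the array contrast (54.7%). In the body level 1 of the 23 rose past the adjusted threshold (1.67% of all genes were called), *DSK2*, which encodes a shuttle factor that brings ubiquitinated proteins to the proteasome, and 0 fell. Its body level was 0.749, 0.569, 0.594 and 0.844 early and 1.06, 0.989, 1.23 and 1.17 late, without overlap, against 1.23 in bulk and 0.685 at 25 min (log2 change 0.63, SE 0.15, limma adjusted p = 0.0462). The call held with the replicate as a block (adjusted p = 0.0285) and without the 4 min library of replicate 2 (0.0284). Without any other single library it was lost (adjusted p from 0.0537 to 0.114), as it was on each strand alone. In all it passed under 5 alternatives and missed the threshold under 16 (adjusted p from 0.0251 to 0.335), with a positive change in each.

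Low promoter ratios were also seen in the pathway list, and not only at *RPN4*, the activator. The nascent medians of its measured genes ran from 0.106 (*NPL4*, a delivery factor) to 0.787 (*UMP1*, an assembly chaperone). Most were below the 0.555 of the other genes, and that of *RPN4* was 0.281. The promoter ratio of *RPN4* was 0.233, 0, 0.127 and 0.358 early and 0.340, 0.231, 0.281 and 0.298 late (0.67, SE 0.40, limma adjusted p = 0.665), against 0.436 in bulk and 1.52 at 25 min, and the 0 came from the shallow library at 4 min of replicate 1. Its +1 ratio was 0.823, 0.307, 0.621 and 1.05 early and 0.998, 0.988, 1.03 and 1.41 late (0.68, SE 0.31, limma adjusted p = 0.544). Its body level was 0.740, 0.564, 1.05 and 1.03 early and 0.916, 0.800, 0.898 and 1.16 late (0.16, SE 0.18, limma adjusted p = 0.680), and its array contrast 1.09, 1.22, 1.12 and 1.13 early and 1.21, 1.00, 1.22 and 1.15 late (0.00, SE 0.08, limma adjusted p = 0.995). All 4 overlapped between early and late.

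The promoter ratio was also set beside the PACE. The 27 proteasome genes with the motif had a median nascent promoter ratio of 0.342, from 0.0851 to 1.26, and the 4 without it had 0.245, from 0.215 to 0.354. The 42 other genes with the motif and with values had a median of 0.507, and 5041 other genes without it 0.545. In bulk the medians were 0.343, 0.312, 0.477 and 0.538. Both sets of proteasome genes had medians below those of the other genes. The set without the motif holds only 4 genes and is defined by the exact letters in the window searched. A part of the motif in the promoter signal was not tested. At 25 min the 4 medians were 1.07, 0.833, 1.04 and 1.06.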

How the data were processed

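For each replicate and for bulk the authors deposited MNase coverage signal of 6326 genes, relative to the library mean, in 26 bins of 20 bp upstream and 80 downstream of the TSS on each strand, of which the last 18 were not used. Cells holding R (202410) or NaN (910), 1.65% of those read, were taken as missing. CASAVA 1.7.0 is named in the submitters' processing notes, and the aligner and build are not given in the sources used here. TSS positions lay a median of 326 bp from R64 gene starts on chromosome XI and 37 to 50 bp elsewhere, so symbols (31 of 31 matched) and sequences came from R64 and no file coordinate was combined with it. In all, 37956 rows of other names and 547 other genes on chromosome 12 were left out.

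Strands were averaged, and bins centred in a window entered it. Genes with a body level above 0 in the 8 libraries were fitted with limma 3.58.1 (R 4.3.3) on log2(value + 0.1), with Benjamini-Hochberg adjustment over all genes. Libraries of a replicate are aliquots of 1 culture, which pairs same-numbered libraries. Their deviations correlated between -0.0686 and 0.0825. Alternatives were the pseudocount, filter, scaling, times, replicate block, strand, bins at 0, windows and leaving out replicates or libraries. Values in every library are given for the 3 largest rises and falls in the promoter ratio, the 2 and 2 in each other measure, the 3 lowest and highest bulk promoters (as a range), *RPN4* and *DSK2*. Other genes named with values were chosen after these were seen. The genes and lists were chosen with earlier results of these data known. Fits were tested on simulated data. Python 3.11.15, numpy 2.4.6 and matplotlib 3.10.9 were used.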

Additional observations from a re-analysis of the deposited data

Results flagged for a closer look

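The median of the 31 proteasome genes was examined for a value far from the rest in 16 sets of libraries. Chance gives about 1 in 20 for separate sets of like libraries. These sets shared libraries and signal, and the replicate sets mixed times, so that rate is only nominal here. Of the 16 sets, 2 held such a value. Both were the 25 min library of replicate 2. Its median promoter ratio was 1.04, with the next value of that replicate at 0.340 and the lowest at 0.279. Its median +1 ratio was 1.64, with the next at 1.31 and the lowest at 1.20. The median promoter ratio of the other genes was 1.05 in the same library and at most 0.608 in the other nascent libraries. Depth was 39.2 reads per bin there, against 49.4 to 78.1 in the rest of replicate 2, and its part in the result was not tested.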

How the results depend on the processing

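Among the 31 proteasome genes 0 were called in each of the 4 measures under every alternative that was run. Over all genes the number called for the promoter ratio (3) was 1 with a pseudocount of 1, 12 after quantile normalization, 0 for 2 against 15 min, 1 for 0 to 4 against 8 to 25 min, 1 on the forward strand, 1 with bins at 0 left out and 5 with the promoter from -200 bp. For the +1 ratio (2) it was 0, 1, 0 and 0 in the first 4 of these settings, 1 with a body level of at least 0.3, 1 with the replicate block, 0 on the forward and 6 on the reverse strand, 0 with bins at 0 left out and 1 with +1 taken to 160 bp. For the body level (95) it was 214, 229, 202 and 54 in the same 4, 0 with no filter, 252 with the replicate block, 23 and 22 on the forward and reverse strands and 20 with bins at 0 left out. For the array contrast (1) it was 2 after quantile normalization, 0 for 2 against 15 min, 2 with the replicate block and 0 on each strand. Leaving out a replicate or 1 library gave 0 to 4, 0 to 3, 2 to 114 and 0 to 3 genes in the 4 measures. The body level count was 19 without the 2 min library of replicate 1, 58 without that of replicate 2, 28 and 23 without the 15 min libraries and 33 without the 8 min library of replicate 2. The median change of the 31 was 0.40 (promoter ratio) and 0.21 (+1 ratio) for 0 to 4 against 8 to 25 min, where the shallow 0 min and the 25 min library enter, and leaving out replicates or libraries gave 0.00 to 0.16, -0.07 to 0.05, -0.06 to 0.07 and -0.00 to 0.05 in the 4 measures.

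Of the counts of proteasome genes with bulk outside the nascent range, the promoter ratio below it was 2 and 1 on the forward and reverse strands, 9 with bins at 0 left out and 4 to 10 without a replicate, and above it 3 on the reverse strand, 2 with bins at 0 left out and 9 to 10. The +1 ratio below was 1 without the 0 min library and 0 to 2 without a replicate, and above 2 and 0 on the strands and 5 to 10. The body level below was 1 on each strand and 2 to 8, and above 3 on the reverse strand, 2 with bins at 0 left out and 6 to 10. The array contrast below was 4 without the 0 min library, 0 and 1 on the strands and 2 to 4, and above 9 to 13. The difference of promoter medians was -0.160 with bins at 0 left out, -0.180 with the promoter from -200 bp, and -0.275 to -0.253 without a replicate. The higher promoter ratio at 25 than at 15 min held in 27 to 31 of the 31 genes. Directions turned for *RPN3* with bins at 0 left out (-0.20), *PUP2* on the reverse strand (-0.00498), *PRE1* for 0 to 4 against 8 to 25 min (0.15), *SCL1* in the +1 ratio for 2 against 15 min (0.0296), *RPN5* in the array contrast on the forward strand (0.23; -0.43 to 0.10 in leave-outs) and *RPN4*, in the array contrast after quantile normalization (-0.00274), for 2 against 15 min (-0.0351), with bins at 0 left out (-0.0338) and in leave-outs (-0.0597 to 0.0687), and in the body level (-0.0267 to 0.36 in leave-outs). None of these was called, and the cause was not tested. With the replicate block all 31 genes stayed uncalled, while the counts over all genes moved as given above. At 0 min and 4 min of replicate 1 depth limits single promoters.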
